A study of Mus musculus with 16 samples.

Results

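The 8 genes described here encode transcription factors that direct T cell lineages: *Tbx21* (T-bet), *Eomes*, *Runx3*, *Prdm1* (BLIMP-1), *Tcf7* (TCF-1), *Foxp3*, *Gata3* and *Bcl6*. They were taken by gene symbol from a table of 26382 mouse genes, which lists all 8. The table holds bulk RNA from hamstring muscle of female C57BL/6 mice that were 8 to 10 weeks old, collected 14 days after intramuscular injection in a model of myositis raised with histidyl-tRNA synthetase (HRS, the Jo-1 autoantigen). The 16 libraries came from 9 mice. In mice m862 to m866 the sample titles name an injected left leg and a PBS-injected right leg, which gave 5 HRS legs (HRS at 3 to 5 mg/mL) and 5 contralateral PBS legs. Mice m867 and m868 received PBS alone in both legs and gave 4 libraries, so legs of 1 mouse are not independent in that group. Mice m860 and m861 gave 1 library each after HRS-MBP, which by title is an HRS fusion with MBP at 2 to 3 mg/mL, whereas their treatment label reads HRS at 3 to 5 mg/mL and no leg is named. The protocol describes bilateral HRS injection, so whether the contralateral legs saw HRS protein is not settled by the labels.

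These factors act in opposition and in combination. T-bet drives type 1 helper cells and, with Eomes, the cytotoxic program of CD8+ T cells and NK cells. RUNX3 sustains the CD8+ lineage, BLIMP-1 drives terminal effector and plasma cell fates, and both take part in tissue residency. TCF-1 marks naive and memory cells that keep the capacity to divide, while FOXP3 defines regulatory T cells, GATA3 type 2 helper cells and BCL6 follicular helper cells. Several of the 8 are not made by T cells alone: T-bet and Eomes are found in NK cells, BLIMP-1 in plasma and myeloid cells, GATA3 in luminal epithelia and BCL6 in many tissues.

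The authors' normalized counts imply between 8595360 and 73939154 reads per library, the right leg of m868 being the shallowest. The HRS leg of m866 stood apart from the other HRS legs in its share of mitochondrial RNA, 11.1% against 3.41% to 6.29%, and in muscle RNA, given below. Several sequencing platforms are named without saying which library ran on which, so platform and group cannot be told apart. Of the 18 T cell core genes, 16 rose in the HRS legs against the contralateral PBS legs, with a median of 2.61 over the 18 on the log2 scale. *Cd247* (0.64) and *Cd28* (-0.09) were not called. Markers of other immune cells differed as well. The summed normalized count of 18 T cell core genes was 10.1 to 18.3 in contralateral PBS legs and 46.3 to 246.1 in HRS legs, that of 8 NK markers 0.801 to 3.66 and 15.3 to 53.3, and that of 9 macrophage and monocyte markers 104.8 to 283.6 and 1060.0 to 5252.0. In bulk tissue, more cells of a type and more RNA per cell cannot be told apart, which holds for every value below, and the part of these cell types in the differences was not tested.

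Between the HRS legs and the contralateral PBS legs, 5 of the 8 factor genes rose and none fell, where 23.2% of all tested genes were called. They were *Runx3*, *Tcf7*, *Eomes*, *Prdm1* and *Tbx21*, with rises of 1.55 to 2.91 on the log2 scale. The 16414 genes tested split into 16.9% called higher, 6.27% called lower and the rest, where a call needs a Benjamini-Hochberg adjusted p under 0.05 in limma and a fitted log2 fold change beyond 1 in size. The median fitted log2 fold change was 1.74 over the 8 factor genes and 0.08 over all tested genes. *Foxp3* and *Bcl6* passed the p threshold with smaller changes, of 0.83 and -0.68, and *Gata3* did not pass it. Without the HRS leg of m866 the count was again 5 of 8.

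**Figure D1:**
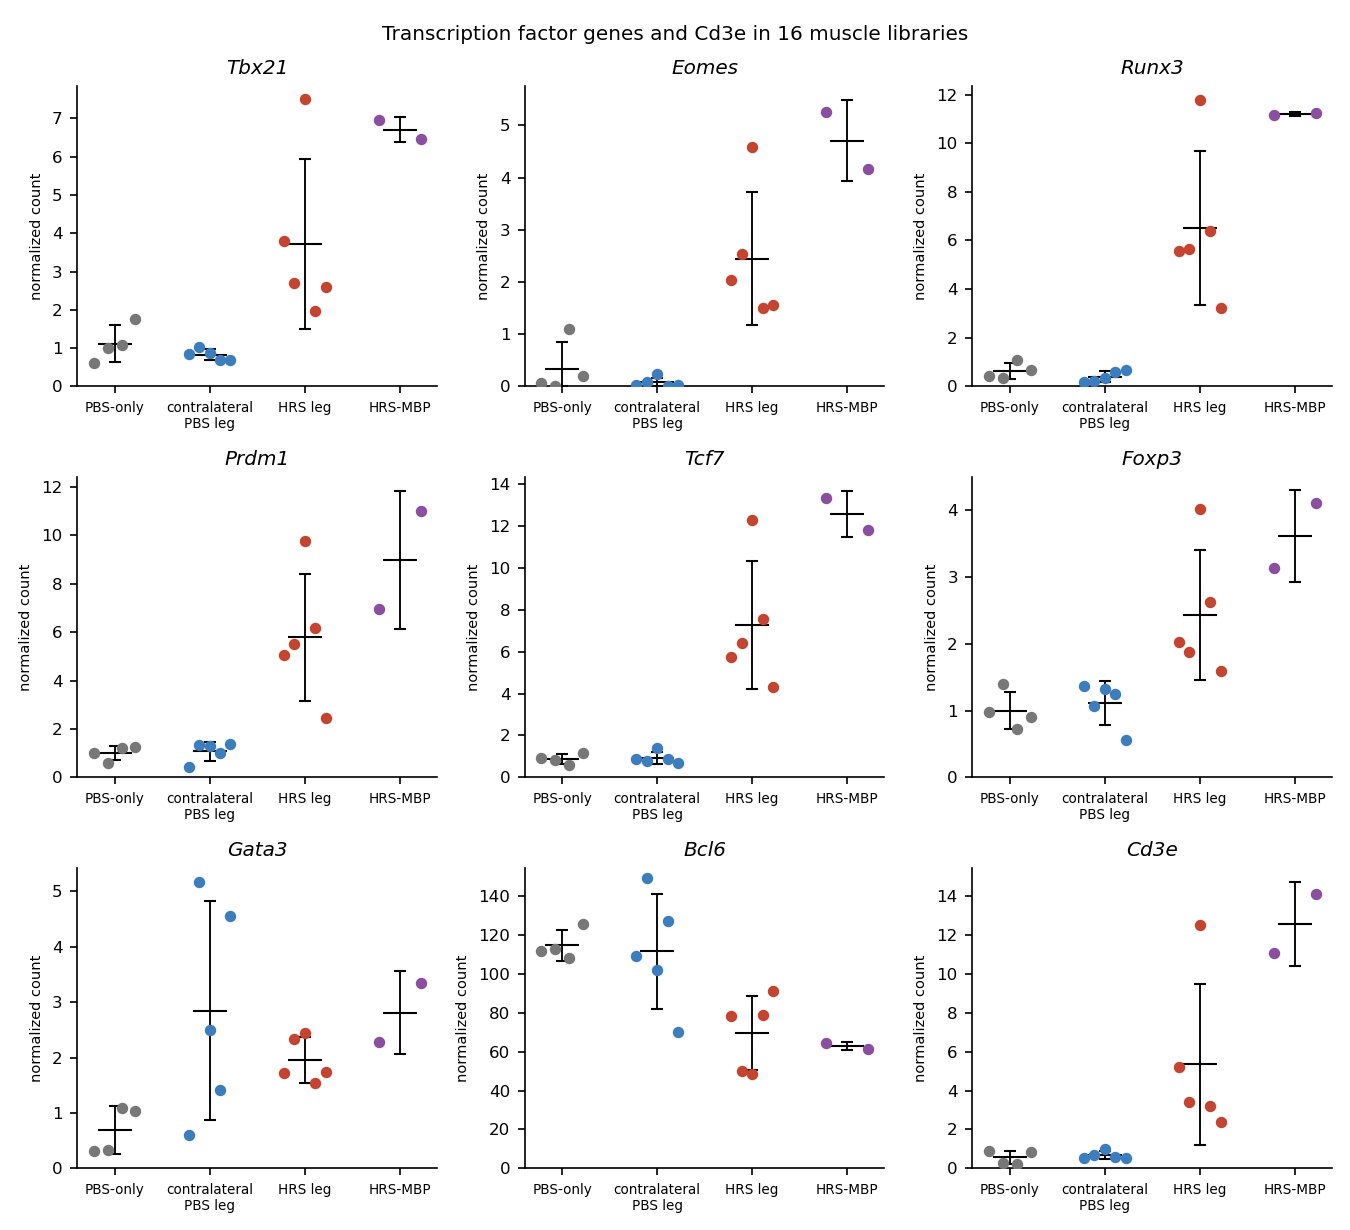
Normalized count (linear axis from 0, a different scale in each panel) of the 8 transcription factor genes and *Cd3e* in every library, by group. Points are libraries, the long bar is the group mean and the whiskers are 1 SD, ended at 0 where they would pass below it. All 5 HRS legs lie above all 5 contralateral PBS legs for *Tbx21*, *Eomes*, *Runx3*, *Prdm1*, *Tcf7*, *Foxp3* and *Cd3e*, but not for *Gata3*, and *Bcl6* is lower in most HRS legs. The share of all tested genes that separate these legs in this way was not counted.

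*Tbx21* encodes T-bet (chromosome 11 from 97098071 to 97115331, minus strand). Its normalized count in the HRS legs of m862 to m866 was 3.81, 2.699, 7.502, 1.98 and 2.59. In the PBS legs opposite it was 0.833, 1.02, 0.878, 0.676 and 0.7001. The lowest HRS leg lay above the highest PBS leg, and the leg of m864 stood highest. The fitted log2 fold change was 1.55 (SE 0.27, adjusted p = 0.0003044). With a pseudocount of 2 in place of 0.5 it was 0.95, under the fold threshold.

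*Eomes*, the T-box gene of the cytotoxic and NK programs (chromosome 9 from 118478212 to 118486132, plus strand), was low in the PBS legs. Contralateral PBS legs held 0.0320, 0.0824, 0.231, 0 and 0.0269, which is the worth of 1, 5, 5, 0 and 1 reads. The HRS legs held 2.04, 2.54, 4.59, 1.495 and 1.56. Every HRS leg was above every PBS leg, and in m865, where the PBS leg had no read, the HRS leg was at least 16.9-fold higher, taking 3 reads in that PBS library as the floor. Summed over the groups, 765 reads stood against 12, a ratio of 38.6 after scaling (exact 95% interval 21.98 to 75.1, counting error only). Against the PBS-only legs the same ratio was 15.0 (8.86 to 27.5). The fitted log2 fold change of 2.28 (SE 0.31, adjusted p = 3.838e-05) depends on the pseudocount for a gene this low, and lay between 1.06 and 3.67 over the alternatives tried.

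The genes that T-bet and Eomes are known to control were higher too. All 13 tested genes of a type 1 list rose in the HRS legs, among them the chemokine gene *Ccl5* (log2 fold change 4.70), *Tnf* (3.46) and *Il18rap* (3.29). *Ifng*, the interferon gene that T-bet activates, rose by 1.89. All 7 tested genes of a cytotoxic list rose as well, with *Il2rb* at 4.15, *Nkg7* at 3.25, perforin (*Prf1*) at 3.05 and *Gzmb* at 3.02. *Gzmk* was under the filter on low values (a mean of 0.5 over 16 libraries). NK cells carry the same 2 factors, and 7 of 7 tested NK markers rose too, by a median of 2.12, so the levels of *Tbx21* and *Eomes* moved with NK markers as well as with T cell genes.

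*Runx3* had the largest fitted change of the 8 genes (chromosome 4 from 135120652 to 135177990, plus strand). The HRS legs held 5.56, 5.66, 11.8, 6.37 and 3.24 normalized counts. The contralateral PBS legs held 0.160, 0.214, 0.323, 0.588 and 0.673. The groups were far apart, and the order of the mice in the PBS legs was not that in the HRS legs. The log2 fold change was 2.91 (SE 0.28, adjusted p = 2.442e-06), and 2.08% of tested genes had a larger one. *Runx3* has a distal and a proximal start. The RefSeq promoter window of the distal start (GRCm38.p6, chr4:135120395-135120694, plus strand, 250 bases before to 50 after the start) is shown because it holds the RUNX letters TGTGGTT in adjacent copies, both on the opposite strand, at positions 116 and 124 of the window, in capitals.
Runx3 distal promoter: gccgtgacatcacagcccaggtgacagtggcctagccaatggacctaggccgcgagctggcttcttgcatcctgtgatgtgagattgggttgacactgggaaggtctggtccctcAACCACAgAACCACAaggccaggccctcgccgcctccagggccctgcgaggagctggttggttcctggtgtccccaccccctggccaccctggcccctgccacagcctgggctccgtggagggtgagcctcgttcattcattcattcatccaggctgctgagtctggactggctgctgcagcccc
Of 32851 RefSeq promoter windows of this length, 5.27% hold these letters on either strand. The window of the proximal start (chr4:135152295-135152594) holds none of the 8 motifs searched. A match is a description of letters, and no binding was measured.

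*Prdm1* encodes BLIMP-1 (chromosome 10 from 44437177 to 44528501, minus strand). In the HRS legs it was at 5.04, 5.53, 9.75, 6.18 and 2.46, and in the contralateral PBS legs at 0.417, 1.32, 1.29, 0.9999 and 1.37. The leg of m866 was the lowest of the HRS legs but still above every PBS leg. The log2 fold change was 1.93 (SE 0.29, adjusted p = 9.487e-05).

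Of 6 genes of a residency list, with which RUNX3 and BLIMP-1 are associated in tissue-resident memory cells, 5 rose. *Cd44* rose by 3.08, *Rgs1* by 2.84, *Cxcr6* by 2.60 and *Cd69* by 2.54, and *Itgae* (CD103) rose by 1.02. The collagen receptor gene *Itga1* was at 0.17 (adjusted p = 0.2202). The residency factor gene *Zfp683* (HOBIT) was under the filter, at 0.0623 to 0.447 in HRS legs and 0 to 0.108 in contralateral PBS legs. *Prdm1* is also made by plasma cells and myeloid cells. Of 9 tested B and plasma cell markers 7 rose, by a median of 1.56 over the 9, with *Jchain* the highest (3.97), and *Pax5* (0.99, adjusted p = 0.01527) and *Xbp1* (-0.07, adjusted p = 0.6437) were not called.

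*Tcf7*, the gene of TCF-1 (chromosome 11 from 52252371 to 52283331, minus strand), was at 5.73, 6.43, 12.3, 7.55 and 4.33 in the HRS legs. Its PBS legs held 0.865, 0.791, 1.39, 0.853 and 0.673. No library of the groups came near the other group, and within the HRS legs the range was 2.84-fold, the narrowest of the 5 genes that rose. The log2 fold change was 2.40 (SE 0.22, adjusted p = 2.099e-06), and 3.74% of tested genes had a larger one. Of 4 tested genes of a naive and memory list, *Il7r* (3.13), *Ccr7* (2.65) and *Actn1* (1.57) rose, and *S1pr1* was at -0.19 (adjusted p = 0.1169). *Dapl1* was under the filter. *Lef1*, the partner of TCF-1 in early T cells, rose by 1.20.

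*Foxp3*, which defines regulatory T cells (chromosome X from 7573644 to 7595245, plus strand), was higher in HRS legs by less than the fold threshold. Values were 2.03, 1.88, 4.03, 2.62 and 1.60 in the HRS legs and 1.37, 1.06, 1.33, 1.26 and 0.563 in the contralateral PBS legs. The groups did not overlap, but the lowest HRS leg (1.60) was near the highest PBS leg (1.37). The log2 fold change was 0.83 (SE 0.22, adjusted p = 0.004796, interval 0.36 to 1.3). It passed the fold threshold with a smaller pseudocount (1.02), with every library scaled to the same total (1.17) and with limma-voom (1.23). Over all alternatives tried it lay between 0.43 and 1.23, with an adjusted p of up to 0.1046 in limma, so the p threshold was not always passed. In 15 of 16 libraries its value was not a whole multiple of the worth of 1 read within 0.02 of a read, unlike *Tbx21*, *Gata3*, *Runx3*, *Prdm1* and *Tcf7*, whose values were whole in 16 of 16, and how the authors divided its reads is not given in the sources used here.

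Among 11 genes of a regulatory T cell list, 7 rose. The costimulatory receptor gene *Icos* rose by 2.09, *Tnfrsf18* (GITR) by 1.88, *Il10* by 1.63 and *Tigit* by 1.48, and *Ctla4*, *Entpd1* and *Lrrc32* rose by 1.10 to 1.45. The genes not called were *Il2ra* (0.56, adjusted p = 0.01467), *Ikzf4* (0.28, adjusted p = 0.2302), *Tnfrsf4* (0.46, adjusted p = 0.1119) and *Ikzf2* (-0.36, adjusted p = 0.108). *Ikzf2*, the gene of Helios, was already at 10.9 to 11.9 in legs of PBS-only mice, above 4 of the 5 HRS legs (6.12 to 13.1). A start of *Foxp3* within the annotated gene (GRCm38.p6, chrX:7580233-7580532, plus strand) is shown because its window holds the STAT letters TTCNNNGAA at position 112 and the GATA letters AGATAA at position 204, in capitals in that order.
Foxp3 promoter: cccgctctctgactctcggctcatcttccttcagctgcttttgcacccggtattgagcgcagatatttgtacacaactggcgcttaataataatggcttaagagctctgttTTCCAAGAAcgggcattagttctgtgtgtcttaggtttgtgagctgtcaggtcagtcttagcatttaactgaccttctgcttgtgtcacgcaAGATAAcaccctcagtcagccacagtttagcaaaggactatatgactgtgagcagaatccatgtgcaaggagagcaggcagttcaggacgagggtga
The STAT letters occur in 8.30% and the GATA letters in 11.2% of all promoter windows. The window of the other listed *Foxp3* start (chrX:7579426-7579725) holds none of the motifs searched.

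*Gata3* (chromosome 2 from 9857078 to 9890034, minus strand) did not separate the legs. The HRS legs held 1.72, 2.33, 2.45, 1.53 and 1.75, a range of 1.60-fold, the narrowest of the 8 genes there. The contralateral PBS legs held 0.609, 5.18, 2.49, 1.41 and 4.55. The 2 highest values of all 16 libraries were thus in PBS legs, those of m863 and m866. The log2 fold change was -0.22 (SE 0.38, adjusted p = 0.6219, interval -1.02 to 0.58).

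The high *Gata3* values came with epithelial genes. The summed level of 14 epithelial markers, a list written after the values were seen, was 66.2, 82.3 and 85.04 in the contralateral legs of m863, m864 and m866, but 2.02 and 6.11 in those of m862 and m865 and 2.55 to 11.2 in the 4 legs of PBS-only mice. In the legs of m863 and m866, 14 of the 14 markers were higher than in those of m862 and m865. The leg of m864 was led by the basal keratin genes *Krt5* (24.6) and *Krt14* (18.8), and those of m863 and m866 by *Krt19* (15.6 and 28.1), with *Epcam* at 4.43 and 4.55. HRS legs held 2.31 to 47.6, led by *Krt18* and *Krt8* in the 4 legs other than that of m866, while *Krt5* was at most 0.345 and *Krt14* at most 0.214 there. Without the contralateral legs of m863, m864 and m866, a choice made after seeing the data, the log2 fold change of *Gata3* was 0.74 (adjusted p = 0.076) and the same comparison still called 5 of the 8 genes. The part of epithelial RNA in the level of *Gata3* was not tested.

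**Figure D2:**
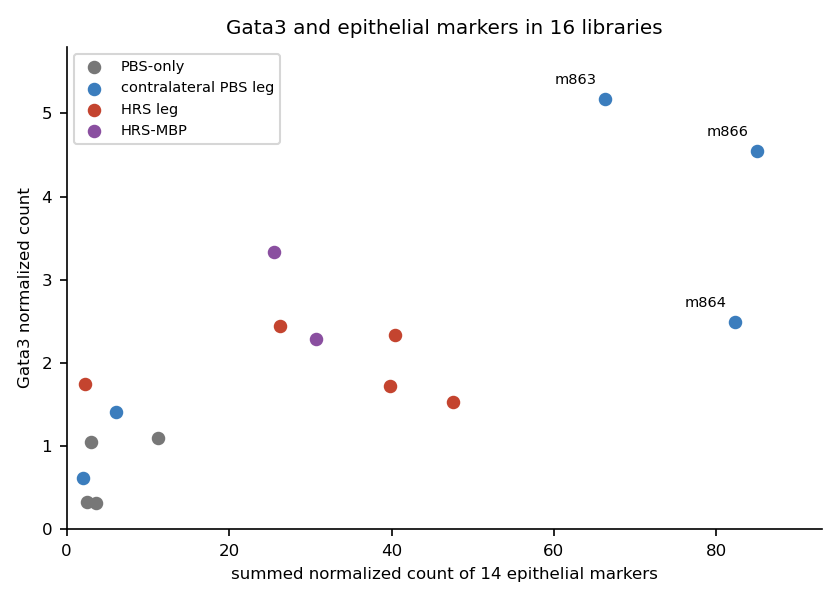
Normalized count of *Gata3* (vertical axis) against the summed normalized count of 14 epithelial markers (horizontal axis), 1 point per library, coloured by group, with 3 contralateral PBS legs named. The contralateral legs of m863 and m866 are highest for *Gata3* at sums of 66.2 and 85.04, and that of m864, at a sum of 82.3, is at 2.49.

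Genes of the type 2 program that GATA3 directs were mostly too low to test. Of 9 listed, *Il13* was absent from the authors' normalized counts, and *Il4*, *Il5*, *Ccr4*, *Ccr8*, *Ptgdr2* and *Il17rb* were under the filter. The cytokine gene *Il4* was at 0 to 0.0893 in HRS legs and *Il5* at 0 to 0.147, while *Ccr4*, *Ccr8*, *Ptgdr2* and *Il17rb* were above 0 in all 5, with means of 0.131, 0.109, 0.0766 and 0.254. Of the 2 tested, *Il1rl1* (ST2) was at 0.90 (adjusted p = 0.0139) and *Areg* at -1.18 (adjusted p = 0.06296), and neither was called.

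*Bcl6* (chromosome 16 from 23965052 to 23988852, minus strand) stood well above the other 7 genes in level. Its normalized count was 78.6, 50.1, 48.7, 78.7 and 91.3 in the HRS legs and 109.2, 149.5, 102.0, 127.1 and 70.0 in the contralateral PBS legs. The groups overlapped, since the contralateral leg of m866 lay below 3 HRS legs, its own among them. The log2 fold change was -0.68 (SE 0.20, adjusted p = 0.008311, interval -1.10 to -0.26), under the fold threshold, and with mouse as a block the adjusted p was 0.07355. Per kilobase of merged exon, *Bcl6* stood at 17.1 ± 1.17 (SD, n = 4) in PBS-only legs, where *Tbx21*, the next of the 8, stood at 0.448 ± 0.194. Of 7 skeletal muscle markers 3 fell, *Ckm*, *Tnnt3* and *Pygm*. The summed level of the 7 was 36210.0 to 151200.0 in HRS legs and 108000.0 to 174100.0 in contralateral PBS legs, the HRS leg of m866 being the highest of its group, and the part of the muscle tissue in the *Bcl6* value was not tested.

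Of 7 genes of a follicular helper list, 3 could be tested and all rose: *Btla* (2.09), *Pdcd1* (1.40) and the chemokine gene *Cxcl13* (1.38). Which cells held these 3 transcripts was not tested, and 7 of 9 tested B and plasma cell markers rose as well. *Cxcr5*, *Il21*, *Sh2d1a* and *Cd40lg* were under the filter, with means in HRS legs of 0.528, 0.455, 0.800 and 0.377 and in contralateral PBS legs of 0.0855, 0.00539, 0.0961 and 0.0162. A second start of *Bcl6* within the gene (GRCm38.p6, chr16:23981234-23981533, minus strand) is shown because its window holds the STAT letters TTCNNNGAA in 3 places, at positions 83, 129 and 163, in capitals.
Bcl6 internal promoter: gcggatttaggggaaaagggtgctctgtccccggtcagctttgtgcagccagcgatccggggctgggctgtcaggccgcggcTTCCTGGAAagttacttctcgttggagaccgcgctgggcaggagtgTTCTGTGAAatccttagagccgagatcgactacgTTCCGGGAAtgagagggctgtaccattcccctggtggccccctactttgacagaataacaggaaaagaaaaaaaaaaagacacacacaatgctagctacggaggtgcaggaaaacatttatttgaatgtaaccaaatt
The window of the first start (chr16:23988803-23989102) holds these letters once, at position 133. Neither holds the BCL6 letters TTCCTAGAA, which are themselves a case of TTCNNNGAA and occur in 0.411% of all windows.

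Within mice, 6 of the 8 genes were higher in the HRS leg of each pair. The share of all tested genes that were so was not counted. Limma called 16.9% of them higher between these legs, but by a different criterion, which *Foxp3*, 1 of the 6, does not meet. The mean log2 difference between the HRS leg and the PBS leg of the same mouse was 2.91 ± 0.82 (SD, n = 5) for *Runx3*, 2.40 ± 0.29 for *Tcf7*, 2.28 ± 0.34 for *Eomes*, 1.93 ± 0.79 for *Prdm1*, 1.55 ± 0.61 for *Tbx21* and 0.83 ± 0.34 for *Foxp3*. Each was positive in 5 of 5 mice, and each gave a two-sided p of 0.0625 in the exact sign-flip test, the smallest that 5 pairs allow. *Gata3* was higher in the HRS leg of 2 of 5 mice (exact p = 0.5625), and *Bcl6* in 1 of 5, that of m866. The spread differed between genes. *Prdm1* ranged from 0.66 in m866 to 2.60 in m862 and *Runx3* from 1.67 in m866 to 3.90 in m864, whereas *Tcf7* stayed between 2.04 and 2.76.

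**Figure D3:**
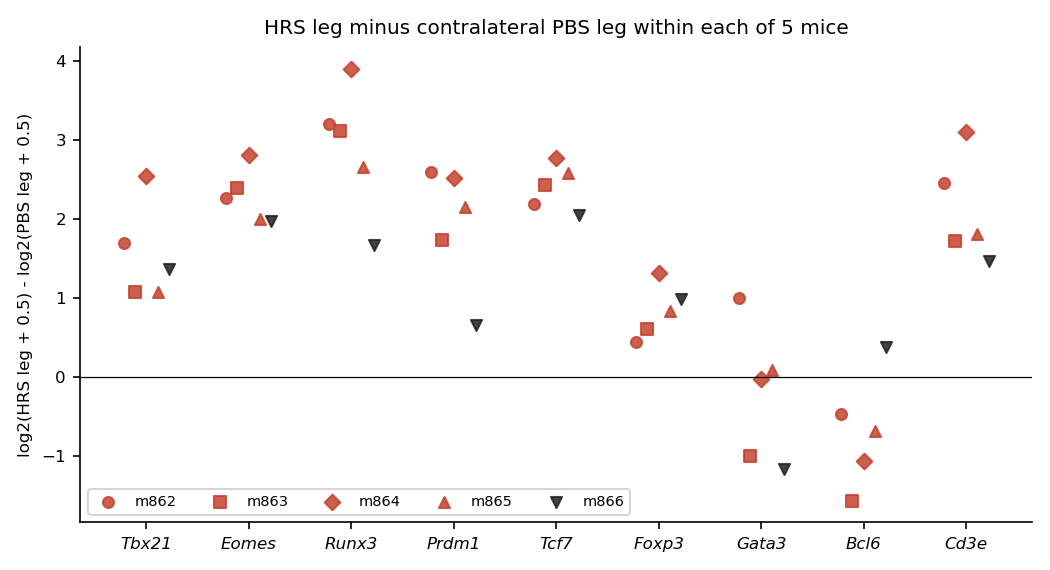
Difference log2(HRS leg + 0.5) minus log2(PBS leg + 0.5) within each of 5 mice (vertical axis) for the 8 factor genes and *Cd3e* (horizontal axis), with 1 symbol per mouse and m866 in black. All 5 mice are above 0 for *Tbx21*, *Eomes*, *Runx3*, *Prdm1*, *Tcf7*, *Foxp3* and *Cd3e*, and m866 is the only mouse above 0 for *Bcl6*.

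The HRS leg of m864 was highest of the 5 for 7 of the 8 genes and lowest for *Bcl6*. The leg of m866 was lowest for *Runx3*, *Prdm1*, *Tcf7* and *Foxp3* and highest for *Bcl6*, and m865 was lowest for *Tbx21*, *Eomes* and *Gata3*. *Cd3e*, the gene of the CD3 epsilon chain, followed m864 and m866, with 12.5 in the highest and 2.37 in the lowest leg.

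Against the legs of PBS-only mice, 6 of the 8 genes were called higher in the HRS legs and none lower, where 24.8% of all tested genes were called, 18.9% higher and 5.87% lower. The count was 7 without the HRS leg of m866, 4 with quantile normalization, where *Tbx21* (0.83) and *Gata3* (0.65) lost their calls, and 3 with a pseudocount of 2, where *Tbx21* (0.81), *Eomes* (0.91) and *Gata3* (0.56) did. The values in the right and left legs of m867 and of m868 were 0.426, 0.323, 1.09 and 0.652 for *Runx3*. For *Tcf7* they were 0.909, 0.849, 0.607 and 1.17, and for *Eomes* 0.0568, 0, 1.09 and 0.196. All 4 lay below the lowest HRS leg for each of these genes. The right leg of m868, where 1.09 is the worth of 9 reads, was the highest PBS leg of all for *Eomes* and *Runx3*. *Runx3* rose by 2.58, *Tcf7* by 2.42, *Prdm1* by 1.96, *Eomes* by 1.89 and *Tbx21* by 1.3.

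*Gata3* was the gene whose call differed between these references. The PBS-only legs held 0.313, 0.323, 1.09 and 1.04, all below the lowest HRS leg, and the log2 fold change was 1.10 (SE 0.40, adjusted p = 0.02636). The call was lost when the legs of each PBS-only mouse were averaged (adjusted p = 0.09186), and also without the HRS leg of m863 or m864 or without either leg of m867 (adjusted p of 0.05348 to 0.08004). *Foxp3* was at 0.93 (adjusted p = 0.003616) and *Bcl6* at -0.76 (adjusted p = 0.006253), both within the fold threshold. All 5 HRS legs lay below all 4 PBS-only legs for *Bcl6*, which held 111.8, 113.1, 108.0 and 125.9 there.

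Between contralateral PBS legs and PBS-only legs, none of the 8 was called by limma, 1 had an unadjusted p under 0.05, and limma-voom called none, where 0.00609% of all tested genes were called. The largest of the 8 differences was that of *Gata3*, at 2.85 ± 1.97 (SD, n = 5) against 0.693 ± 0.433 (n = 4), a log2 fold change of 1.32 (unadjusted p = 0.004519, adjusted p = 0.7559). Only 0.158% of tested genes had a larger one. Without the epithelium-rich legs of m863, m864 and m866 it was 0.36. The T-box and RUNX genes lay the other way, *Eomes* at -0.39 (interval -1.08 to 0.30), *Runx3* at -0.32 (-0.94 to 0.30) and *Tbx21* at -0.25 (-0.85 to 0.35). For *Eomes* the means were 0.0745 and 0.336, and for *Runx3* 3 of the 5 contralateral legs were below all 4 PBS-only legs. *Tcf7* and *Prdm1* were at 0.03 and 0.03 (-0.47 to 0.52 and -0.62 to 0.68), *Foxp3* at 0.10 (-0.40 to 0.59) and *Bcl6* at -0.08 (-0.53 to 0.37).

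After HRS-MBP, 7 of the 8 genes were higher than in PBS-only legs, where 30.9% of all tested genes were called, 20.7% higher and 10.2% lower. *Runx3* was at 11.1 and 11.3 in m860 and m861, *Tcf7* at 13.4 and 11.8, and *Prdm1* at 6.97 and 11.01. *Tbx21* was at 6.95 and 6.47, *Eomes* at 5.25 and 4.16, *Foxp3* at 3.13 and 4.11, and *Gata3* at 2.28 and 3.34. Both libraries lay above all 4 PBS-only legs for each of these 7 genes, and the share of all tested genes that did so was not counted. The log2 fold changes were 3.43 for *Runx3*, 3.25 for *Tcf7*, 2.80 for *Eomes*, 2.63 for *Prdm1*, 2.21 for *Tbx21*, 1.53 for *Gata3* and 1.47 for *Foxp3* (adjusted p of 2.47e-06 to 0.01981). *Bcl6*, at 64.2 and 61.6, was lower by 0.86 on the log2 scale (adjusted p = 0.01445), within the fold threshold. With either HRS-MBP library left out, *Gata3* was no longer called (adjusted p = 0.05448 and 0.1353), nor with averaged PBS-only legs (adjusted p = 0.05533). With a pseudocount of 2 and with quantile normalization 5 genes were called, *Foxp3* (0.91 and 0.89) and *Gata3* (0.84 and 0.99) falling out.

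Between HRS-MBP and HRS legs none of the 8 genes was called by limma or limma-voom, where 0.463% of all tested genes were called (0.396% higher, 0.067% lower), and 4 had an unadjusted p under 0.05. The values of 7 genes were higher on average after HRS-MBP, *Tbx21* by 0.91, *Eomes* by 0.91, *Runx3* by 0.84 and *Tcf7* by 0.83 on the log2 scale. The HRS leg of m864 reached or passed the lower HRS-MBP library for the 7 genes other than *Bcl6*, and without it *Tbx21* (1.17, adjusted p = 0.01736) and *Tcf7* (1.03, adjusted p = 0.01984) were called. Dose, fusion partner and leg are not separated by the labels and cannot be told apart.

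**Figure D4:**
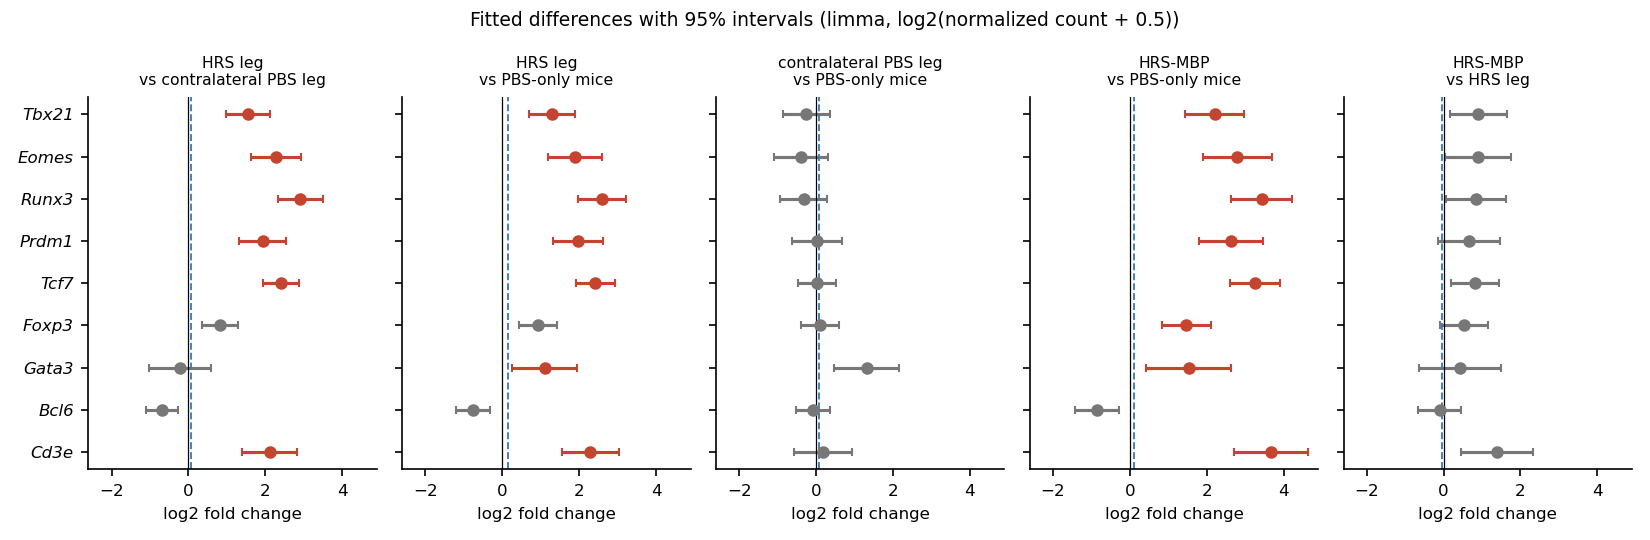
Fitted log2 fold change (horizontal axis) with its 95% interval for the 8 factor genes and *Cd3e* (vertical axis) in 5 comparisons. Red marks genes called at an adjusted p under 0.05 with a log2 fold change beyond 1, grey the others, and the dashed line is the median over 16414 tested genes. The comparison of PBS legs with each other holds no red point, and in the 3 comparisons of HRS or HRS-MBP with PBS the interval of *Bcl6* lies below 0.

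To ask whether a factor rose more or less than T cells as a whole, each value was set against *Cd3e* of the same library as log2(gene + 0.5) minus log2(*Cd3e* + 0.5). *Cd3e* itself was at 5.21, 3.41, 12.5, 3.20 and 2.37 in HRS legs and 0.545, 0.694, 1.02, 0.559 and 0.539 in contralateral PBS legs. It rose by 2.11 (SE 0.33, adjusted p = 0.0001467). In PBS-only legs it rested on 31, 7, 2 and 13 reads, so ratios to it are imprecise there. In all, 40 differences were tested by two-sided exact permutation over libraries, with no adjustment, and 9 had a p under 0.05.

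Between the legs, 4 genes were lower relative to *Cd3e* in the HRS leg. *Bcl6* differed by -2.79, *Gata3* by -2.33 and *Foxp3* by -1.28, each with no overlap between the groups and an exact permutation p of 0.007937, the smallest that 5 against 5 libraries allow. A gene with a steady level outside T cells falls relative to *Cd3e* when *Cd3e* rises, and the part of other cells in these differences was not tested. Of all tested genes, 5.14% had a fitted log2 fold change at least as large as that of *Cd3e*, so most were lower relative to it as well. The share of all tested genes without overlap on this scale was not counted. The linear ratio of *Bcl6* to *Cd3e* was 100.4 to 227.4 in contralateral PBS legs and 3.89 to 38.5 in HRS legs. That of *Foxp3* was 1.73 ± 0.628 (SD, n = 5) in contralateral PBS legs and 0.551 ± 0.203 (n = 5) in HRS legs. *Foxp3* was higher in the HRS leg of 5 of 5 mice and lower relative to *Cd3e* in 5 of 5. For *Gata3*, the contralateral legs were at 0.09, 2.25, 0.98, 0.85 and 2.28 on this scale and the HRS legs between -2.14 and -0.35. Contralateral legs with high epithelial markers are among those values, and the part of epithelial RNA in this difference was not tested. *Tbx21* differed by -0.56 (exact permutation p = 0.01587), lower in 5 of 5 mice. The permutation does not use the pairing of legs by mouse. In the exact sign-flip test over mice, each of these 4 genes gave a p of 0.0625, the smallest that 5 pairs allow.

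*Runx3* was higher relative to *Cd3e*, by 0.80 (exact permutation p = 0.03968, exact sign-flip p = 0.0625, higher in 5 of 5 mice), a result that rested on single libraries. Without the HRS leg of m863, m865 or m866, or the contralateral leg of m862, m863 or m864, the difference was 0.67 to 0.80 (exact permutation p = 0.07937). With *Cd3g* in place of *Cd3e* the difference was 0.24 (exact permutation p = 0.381), with the mean of the T cell core list 0.49 (exact permutation p = 0.07143) with *Trac* 0.04 (exact permutation p = 0.9048) and with *Cd4* -1.09 (exact permutation p = 0.03175), so its direction rests on the T cell gene chosen. *Eomes* (0.17, exact permutation p = 0.381), *Prdm1* (-0.18, exact permutation p = 0.5317) and *Tcf7* (0.29, exact permutation p = 0.2063) did not pass 0.05. For *Eomes* this depended on the pseudocount: a smaller one gave 1.12 (exact permutation p = 0.007937), and the linear ratios to *Cd3e* did not overlap, at 0 to 0.227 in contralateral PBS legs and 0.367 to 0.744 in HRS legs. With *Cd247*, which was at 2.02 to 3.11 in contralateral PBS legs and 3.26 to 9.04 in HRS legs, *Tbx21* turned to 0.91, *Foxp3* to 0.19 and *Prdm1* to 1.29. *Gata3* was then at -0.86 (exact permutation p = 0.1349), while *Eomes* and *Tcf7* were at 1.64 and 1.76 (exact permutation p of 0.007937 for both).

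Relative to *Cd3e*, HRS legs were lower than PBS-only legs for *Bcl6* (-3.05), *Foxp3* (-1.36), *Gata3* (-1.19) and *Tbx21* (-0.99), with exact permutation p of 0.01587 for *Bcl6* and *Foxp3*, and of 0.04762 for *Gata3* and *Tbx21*. These p-values treat the 2 legs of a PBS-only mouse as independent. With those legs averaged, the exact permutation p was 0.09524 for *Bcl6*, *Foxp3* and *Tbx21*, the smallest allowed, and 0.1905 for *Gata3*. The values for *Gata3* and *Tbx21* passed 0.05 neither when any 1 HRS leg was left out (exact permutation p of 0.05714 to 0.08571) nor without the left leg of m867 or either leg of m868 (exact permutation p = 0.1071). Between HRS and PBS-only legs, 4.9% of all tested genes had a fitted log2 fold change at least as large as that of *Cd3e*, so most were lower relative to it. With *Cd247* as reference *Foxp3* was at -0.25 (exact permutation p = 0.4127), *Gata3* at -0.081 (exact permutation p = 0.8571) and *Tbx21* at 0.12 (exact permutation p = 0.873). None of the 8 differed between contralateral PBS and PBS-only legs by this test. For HRS-MBP no test could pass 0.05, the smallest p being 0.1333 against PBS-only and 0.09524 against HRS legs. *Foxp3* had the tightest ratio after HRS-MBP, 0.284 and 0.291 of *Cd3e*, below all HRS legs (0.322 to 0.818).

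**Figure D5:**
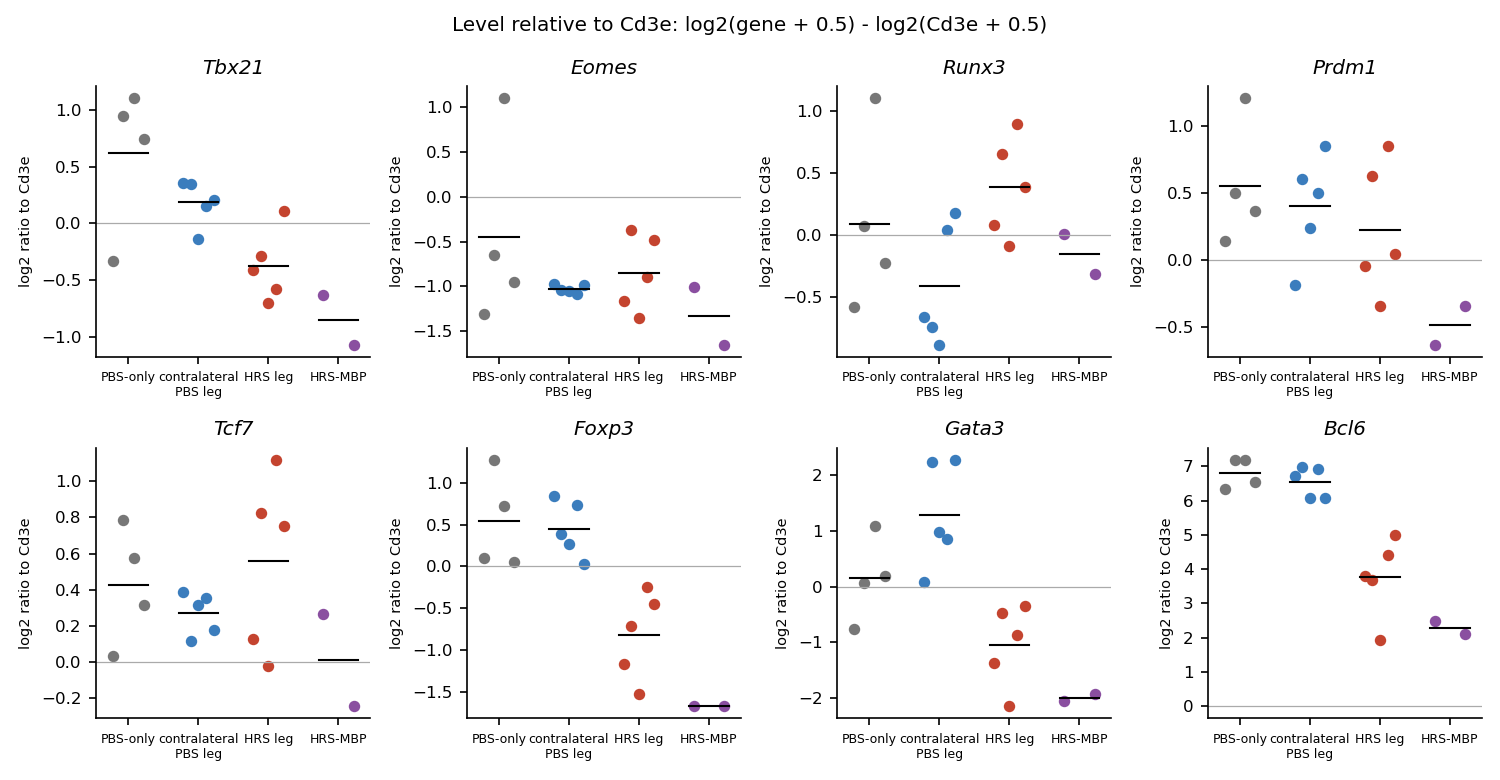
Level of each factor gene relative to *Cd3e*, log2(gene + 0.5) minus log2(*Cd3e* + 0.5) (vertical axis, a different range in each panel), in 16 libraries by group. Points are libraries and bars are group means, and the grey line marks a level equal to *Cd3e*. *Foxp3*, *Gata3* and *Bcl6* lie lower in all 5 HRS legs than in all 5 contralateral PBS legs, while *Eomes*, *Prdm1* and *Tcf7* overlap. The share of all tested genes that lie lower in this way was not counted.

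Among 34 tested genes of a list of other transcription factors of T cells, 12 rose and 3 fell between the legs, with a median of 0.75. Among those that rose were the lymphoid factor genes *Ikzf1* (3.01) and *Runx1* (2.93), and *Batf* (2.59). Among those that fell were *Zbtb16* (-1.54) and *Satb1* (-1.23). Of a list of type 17 genes, *Il17a*, *Il17f*, *Il22* and *Ccl20* were absent from the authors' normalized counts, *Il23r* and *Ccr6* were under the filter, and *Il1r1* rose by 1.85. *Ascl2* was under the filter.

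Levels can be compared between genes only per length. Per kilobase of merged exon, the mean order in HRS legs was *Bcl6* (10.4), *Tcf7* (2.77), *Tbx21* (1.49), *Runx3* (1.303), *Prdm1* (1.04), *Eomes* (0.588), *Foxp3* (0.531) and *Gata3* (0.491), with SDs over 5 legs of 2.84, 1.16, 0.892, 0.632, 0.471, 0.306, 0.212 and 0.102. Below *Bcl6*, neighbours in this order lay within the larger of their SDs of each other, except *Tcf7* above *Tbx21*. In contralateral PBS legs *Eomes* was the lowest, at 0.0179 ± 0.0222 per kilobase.

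The 2 genes whose deviations from the group means were most like those of each factor were sought among all tested genes. For *Prdm1* they were *Tifab* (Pearson's r of 0.973 over 16 libraries) and the macrophage receptor gene *Csf1r* (0.966), against 0.67 for *Cd3e*. For *Tbx21* they were *Irf8* (0.913) and *Znfx1* (0.899), for *Runx3* the innate RNA sensor gene *Dhx58* (0.944) and *Slc15a3* (0.931), and for *Eomes* *Bcl11a* (0.933) and *Tspan32* (0.919). *Tcf7* was nearest to *P2ry13* (0.951) and *Sart3* (0.938), with 0.81 for *Cd3e*, the highest r with *Cd3e* among the 8. *Gata3* was nearest to *Tox2* (0.888) and the E-cadherin gene *Cdh1* (0.857), *Foxp3* to *Ddx54* (0.89) and *Zup1* (0.841), and *Bcl6* to *Gm47547* (0.909) and the dystrophin gene *Dmd* (0.905). These values describe libraries that share scaling and depth, and they were picked as the highest of all tested genes.

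RefSeq lists promoter windows for all 8 genes, 12 in all. Besides those shown, *Prdm1* (chr10:44458699-44458998) and a second *Tcf7* start (chr11:52282546-52282845) hold the forkhead letters GTAAACA, found in 3.65% of all windows. The windows of *Tbx21*, *Eomes* and *Gata3* hold none of the motifs searched, which were those above, the T-box letters AGGTGTGA (1.27% of all windows), the TCF/LEF letters CTTTGAA (5.13%) and the BLIMP-1 motif (0.253%), on both strands.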

How the data were processed

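Bulk RNA of 16 mouse muscle libraries was analysed from the table the authors deposited, which gives a normalized count per gene, treated as a non-negative signal. The labels name poly(A) selection and a directional kit, and the submitters' processing notes name STAR 2.7.8a, limma and mm39. The table's positions nevertheless match GENCODE M21 (GRCm38) for 99.0% of 25652 matched genes, and positions here are those of GRCm38. The scaling method and the use of strand in counting are not given in the sources used here, so overlapping and antisense genes are uncertain. Groups follow titles and treatment labels. Totals lay between 726797 and 1252358, and 75.4% to 77.7% of the low values came out whole (within 0.02 of a step), too few for a count model. The step gave the worth of 1 read, implied depths and a floor of 3 reads. Intervals at 95% on reads are exact and cover counting error only.

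Values were tested in R 4.3.3 with limma 3.58.1 (lmFit, eBayes with trend) on log2(normalized count + 0.5), for the 16414 genes with a mean of at least 0.5, in 1 fit of 4 groups. All 8 factor genes passed that filter. Fold changes on this scale understate those of low genes. Adjusted p is Benjamini-Hochberg over all tested genes. P-values measure the spread between these libraries, and legs of 1 mouse are not independent. Numbers m862 to m866 pair the legs, since the mouse label marks the same animal. Deviations of the 2 legs correlated across genes at 0.119, 0.163, 0.0972, -0.0256 and -0.366. Exact two-sided permutation and sign-flip tests used scipy 1.17.1 and numpy 2.4.6. The fit was tested on simulated data for HRS against contralateral PBS legs: of 200 genes given a log2 change of 1.5 among 16414, it recovered 89% and made 4 false calls. Recovery was 86.5% for HRS against PBS-only legs and 85.5% between PBS groups. It was 74% for HRS-MBP against PBS-only legs and 73.5% for HRS-MBP against HRS legs.

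The genes, lists and tests were chosen with earlier results of these data known. Genes named from a list are the 4 largest called changes, those not called where 4 or fewer, and those under the filter. For each factor the 2 genes of highest correlation are named. Some genes that this rule names are not reported here. *Ifng*, *Lef1*, *Jchain*, *Itgae*, *Ctla4*, *Entpd1*, *Lrrc32* and the epithelial markers were named outside that rule, after their values were seen. Alternatives covered the pseudocount, filter, scaling, variance model, voom weights, libraries in the fit, mouse block, reference gene and each library left out. *Cd4* and *Trac* as references, and the fit without 3 contralateral legs, were added after the data were seen.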

Additional observations from a re-analysis of the deposited data

How the results depend on the processing

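The 5 calls between HRS and contralateral PBS legs remained 5 in number whichever library was left out (5 to 5), while all-gene counts ran from 3032 to 4855. With mouse as a replicate block in 10 libraries, 3652 genes and 5 of the 8 factor genes were called, and the block changed no call. Left-out ranges of factor genes called were 5 to 7 (all genes 3387 to 5103) against PBS-only, 0 to 0 (0 to 2) between PBS groups, 6 to 7 (4301 to 5203) for HRS-MBP against PBS-only, and 0 to 2 (25 to 590) for HRS-MBP against HRS legs, 590 without the HRS leg of m864 and 25 without m861. A pseudocount of 2 called 3 against PBS-only. Between PBS groups 0 genes were called with a smaller pseudocount, no filter, equal totals, limma-voom, only the groups compared or averaged PBS-only legs, and 2 with quantile normalization. HRS-MBP against HRS legs gave 35 genes with a filter of 2 and 4 with only the groups compared. Leg pairs kept 6 to 7 genes of 1 direction with a mouse left out.

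Relative to *Cd3e*, genes past 0.05 numbered 4 to 5, 2 to 4 and 0 to 2 with a library left out (HRS against contralateral, HRS against PBS-only, and between PBS groups). A smaller pseudocount gave 2 against PBS-only, *Cd4* as reference gave 8, 8 and 2, and *Trac* gave 1 between PBS groups. The smallest p that averaged PBS-only legs allow was 0.0952. By sign flips over mice, the replicate block, the smallest p was 0.0625.

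Values that turned sign were mostly small. *Gata3* between legs became 0.20 with limma-voom, 0.10 with equal totals, -0.56 to 0.029 with 1 library left out and 0.74 without those of m863, m864 and m866. Between PBS groups, *Prdm1* and *Tcf7* became -0.030 and -0.054 with quantile normalization and -0.35 and -0.011 without those 3 legs, *Bcl6* then 0.041. With 1 library left out, *Prdm1* ran from -0.11 to 0.22, *Tcf7* from -0.083 to 0.12 and *Bcl6* from -0.20 to 0.075. For HRS-MBP against HRS legs *Bcl6* ran from -0.21 to 0.013.

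Relative to other references between legs, *Eomes* became -0.39 (*Cd3g*), -0.13 (T cell core list), -1.72 (*Cd4*), -0.59 (*Trac*) and -0.26 (pseudocount 2), *Tcf7* -0.27, -0.015, -1.60 and -0.47 with the same 4 references, and *Runx3* -1.09 (*Cd4*). With *Cd247*, *Foxp3* became 0.19, *Tbx21* 0.91 and *Prdm1* 1.29. Against PBS-only legs, *Tcf7* became -0.36 (*Cd3g*), -0.016 (core list), -1.62 (*Cd4*), -0.34 (*Trac*), -0.068 (smaller pseudocount) and -0.0059 to 0.28 (1 library left out), and *Runx3* -0.20 (*Cd3g*), -1.46 (*Cd4*) and -0.18 (*Trac*). *Eomes* became 0.065 (smaller pseudocount), 0.71 (*Cd247*) and -0.68 to 0.12 (1 library left out, 0.12 without the right leg of m868), *Tbx21* 0.12 and *Prdm1* 0.78 (*Cd247*). The cause was not tested. Depth limits the PBS-only legs most, where 3 reads are worth up to 0.364 normalized counts.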
